A study of Homo sapiens with 6 samples.

Results

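Heat shock chaperones of the cytosol and the mitochondria were examined in SW620 cells, a line established from a human colorectal cancer. The set held 51 genes chosen by symbol, of the 39554 genes in the deposited count table, and all 51 were found in it. They were 2 heat shock factors, 11 genes of the HSP70 and HSP110 families, 3 HSP90 genes, the mitochondrial HSP60 and HSP10 pair, 2 genes with small HSP symbols, 9 DNAJ genes, the 8 subunits of the CCT chaperonin, 4 BAG genes, 9 co-chaperones and SERPINH1. Both groups were wild-type SW620 cells, by the labels, harvested 72 h after transfection. One group of 3 libraries received an siRNA (siSOWAHA) against SOWAHA, a gene for an ankyrin repeat protein that the series treats as a suppressor of cancer. The other group of 3 libraries received a control siRNA (siNC). The protocol names no heat treatment of either group, and the comparison is of 1 cell line at 1 time. Levels are given as CPM (counts scaled to library size), for replicates 1, 2 and 3 of a group in that order. A gene is called higher or lower in siSOWAHA when its Benjamini-Hochberg adjusted p in edgeR's quasi-likelihood test, over all 17693 genes tested, is under 0.05.

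Chaperones bind proteins that are not yet folded, or that have lost their fold, and release them in cycles driven by ATP. HSP70 proteins take up such chains with the help of DNAJ partners and let them go when nucleotide exchange factors act, among them the HSP110 and BAG proteins. HSP90 completes the folding of kinases, steroid receptors and other clients in a cycle set by its co-chaperones, and the CCT ring folds actin and tubulin. The transcription factor HSF1 raises many of these genes when unfolded proteins gather, by binding heat shock elements in their promoters. Cancer cells commonly depend on HSF1 and HSP90 without any heat stress.

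The symbols did not all describe what the set's name says. HSPB11 carries the symbol IFT25 in RefSeq and encodes a subunit of the intraflagellar transport machinery. SERPINH1 (HSP47) is a collagen chaperone that resides in the endoplasmic reticulum (ER) lumen, and HSPA13 is an HSP70-like protein associated with microsomes. The other members are known as heat shock factors, chaperones or co-chaperones of the cytosol, nucleus or mitochondria.

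Promoter sequences were looked up for the members because the heat shock element is the sequence that HSF1 binds. RefSeq's promoter table (GRCh38.p14, from 250 bases before to 50 bases after each start) matched 45 of the 51 members. CCT6A, FKBP4, HSF1, HSPA14, ST13 and STUB1 were not matched. A heat shock element is a run of GAA and TTC units in alternation with 2 bases between them. Runs of at least 3 units were found in 9 of the 45 members (20.0%), against 0.608% of the 27305 genes in the table. These 9 promoters are shown as 30-base windows, 5′ to 3′ on the gene's strand, with the element in capitals.
CHORDC1, higher in siSOWAHA (chr11:90223084-90223113, minus strand): accgGAAAATTCGCGAAGGTTCCTGAAacg
DNAJA1, higher in siSOWAHA (chr9:33025267-33025296, plus strand): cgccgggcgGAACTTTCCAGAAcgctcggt
HSP90AA1, higher in siSOWAHA (chr14:102087112-102087141, minus strand): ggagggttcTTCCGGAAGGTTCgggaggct
HSP90AB1, higher in siSOWAHA (chr6:44247822-44247851, plus strand): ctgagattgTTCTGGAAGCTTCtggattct
HSPD1, higher in siSOWAHA (chr2:197500061-197500090, minus strand): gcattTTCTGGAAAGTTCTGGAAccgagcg
HSPA8, not called (chr11:123062171-123062200, minus strand): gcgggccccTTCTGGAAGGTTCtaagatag
DNAJB6, lower in siSOWAHA (chr7:157336864-157336893, plus strand): aagagccgaGAACCTTCGCGAAggtggggc
SERPINH1, lower in siSOWAHA (chr11:75562168-75562197, plus strand): tttccaactTTCCAGAAGTTTCtcgggacg
HSPA6, not tested (chr1:161524457-161524486, plus strand): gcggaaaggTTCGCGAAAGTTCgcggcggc

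The CHORDC1 element was the longest, with 5 units over 23 bases from position -60 to -38 relative to the start in the table. HSPD1 had 4 units over 18 bases, from -245 to -228. HSP90AB1 and HSPA8 each held another run of 3 units, at -165 to -153 in HSP90AB1 and -230 to -218 in HSPA8. The DNAJA1 element lay after the start, at 4 to 16. For HSP90AA1, HSP90AB1 and HSPD1 the start used in the table lies inside the gene's span in the deposited annotation. A pair of units with 2 bases between them (GAANNTTC or TTCNNGAA, on either strand, counted also where it is part of a longer run) stood in 22 of the 45 members (48.9%) and in 16.2% of all genes in the table. The CCAAT box (CCAAT or ATTGG) was in 16 of the 45 members (35.6%) and in 39.7% of all genes. A match describes the sequence of the window and is not a measurement of binding.

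Whether a group's replicates were grown separately is not in the labels, so the spread behind each p-value may be only technical. Each library held 49937395 to 59474396 counts, with a biological coefficient of variation of 0.105. SOWAHA itself had 7.52, 6.85 and 8.96 CPM in siSOWAHA, against 32.3, 39.4 and 33.8 CPM in siNC, and was lower in siSOWAHA (log2 fold change -2.18, SE 0.105, adjusted p = 3.68e-09; edgeR quasi-likelihood test). By exact permutation (two-sided) p was 0.1, and no smaller p is possible with 3 libraries against 3. Some epithelial markers were abundant and others close to absent. EPCAM had 398 ± 2.15 CPM in siSOWAHA and 398 ± 5.54 CPM in siNC (SD, n = 3 each), and KRT8, KRT18 and VIL1 were abundant. Of the 12 epithelial markers 11 were tested and 4 were lower in siSOWAHA (KRT8, KRT19, CDX2 and CDH17), CDX1 was at 0 in all libraries, and KRT20, LGALS4, GPA33 and CEACAM5 averaged 0.673, 0.346, 0.409 and 1.28 CPM in siSOWAHA and 0.642, 0.416, 0.440 and 1.40 CPM in siNC. The summed level was 8786 to 8896 CPM in siSOWAHA and 9412 to 9724 CPM in siNC. The 8 fibroblast markers summed to 80.0 to 93.1 CPM in siSOWAHA and 70.1 to 77.0 CPM in siNC, with LUM the only one called, higher, of 5 tested. The 8 leukocyte markers summed to 11.9 to 13.9 CPM in siSOWAHA and 13.4 to 14.9 CPM in siNC, with PTPRC and CD3E at 0 and none of 4 tested called. The 6 endothelial markers summed to 1.61 to 3.30 CPM in siSOWAHA and 2.09 to 2.80 CPM in siNC, with CDH5 at 0 and none of 2 tested called. The part of these marker differences in the results on the chaperones was not tested.

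Between siSOWAHA and siNC, the one contrast of the series, many chaperone genes differed by a little, and most of those that did were higher in siSOWAHA. The test covered 50 members, and HSPA6 had too few counts. Of these 50, 27 were called, against a background of 16.9% of all genes tested. The calls were 23 members higher (46.0%), against 9.12% of all genes, and 4 members lower (8.00%), against 7.77% of all genes. Leaving out 1 library gave 15 to 23 members higher, with 15 without siSOWAHA replicate 2 and 15 without siNC replicate 1, and 871 to 1225 genes lower, with 871 without siNC replicate 3, against 1374 with all libraries. The scaling set the balance over all genes: with TMM factors, used here, 1614 were higher and 1374 lower, but upper-quartile scaling gave 1328 higher and 1558 lower, and scaling by library totals gave 1323 higher and 1561 lower. Each of those 2 scalings called 21 members higher and 5 lower. The members higher in siSOWAHA included HSP90AA1, HSP90AB1, the HSP90 co-chaperones FKBP4 and AHSA1, the small heat shock protein HSPB1, mitochondrial HSPD1 and 5 CCT subunits. The members lower in siSOWAHA were DNAJB6, PTGES3, SERPINH1 and HSPB11.

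The differences were small. The log2 fold change of siSOWAHA over siNC ran from -0.29 (HSPB11) to 0.41 (FKBP4) over the 50 members. Its median was 0.090, against -0.0078 for all genes tested, which the scaling holds near 0. The log2 fold change was above 0 in 42 of the 50 members, against 48.4% of all genes. Among called genes its median size was 0.20 for the members and 0.25 for all genes. Only 5 members changed by at least 1.2-fold either way: FKBP4, AHSA1, HSPA4L and HSPB1 upward and HSPB11 downward. All 3 siSOWAHA libraries lay above all 3 siNC libraries for 29 members (58.0%), against 16.7% of all genes, and below them for 6 members (12.0%), against 16.3% of all genes. In RNA of bulk cells, a change in every cell and a change in the share of cells in some state cannot be told apart.

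**Figure D1:**
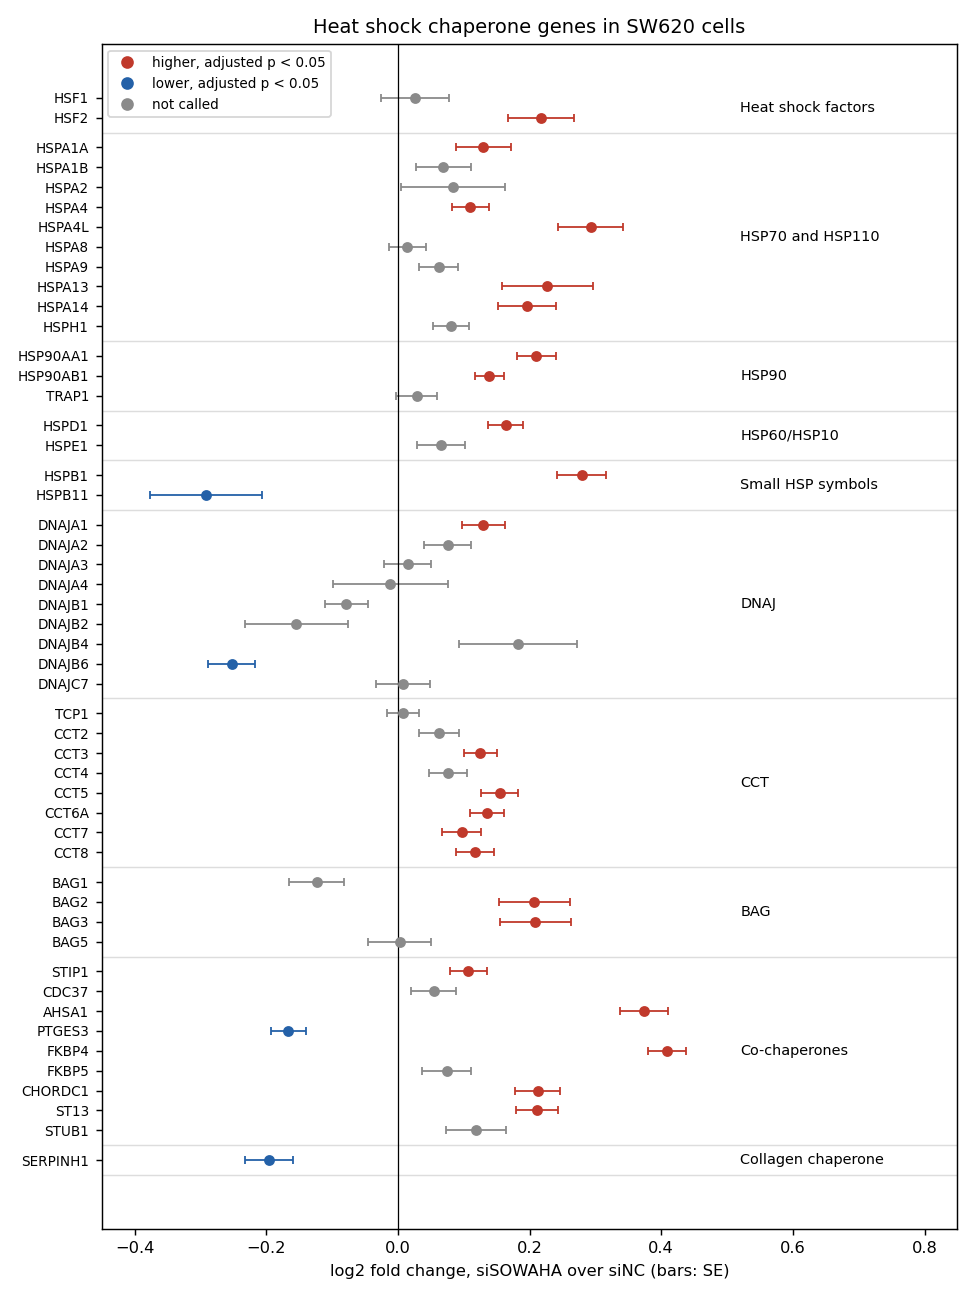
Log2 fold change of siSOWAHA over siNC (x axis) with its SE for the 50 chaperone genes tested, grouped by role (y axis), with 3 libraries a group. Of the 50 points 42 lie to the right of 0, with FKBP4 farthest at 0.41, and HSPB11, DNAJB6, SERPINH1 and PTGES3 are called to the left of it; HSPA8, DNAJA3, DNAJC7, TCP1 and BAG5, all near 0, fall below 0 with upper-quartile factors or library totals alone.

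Most members had high counts, and genes with high counts were called more often. The median level of the tested members was 185 CPM, against 16.8 CPM for all genes tested. Among the 2451 tested genes that averaged at least 100 CPM, 35.9% were called, 22.9% higher and 13.0% lower. Of the 35 members at that level, 20 were called (57.1%), 17 higher (48.6%) and 3 lower (8.57%). The level of 100 CPM was chosen after the data were seen.

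HSF1 and HSF2 are the heat shock factors of the set. HSF1, the main activator of the response to heat, had 65.7, 68.2 and 63.4 CPM in siSOWAHA, against 63.0, 61.3 and 69.5 CPM in siNC. The groups overlapped, and the difference was not called (log2 fold change 0.026, SE 0.0517, adjusted p = 0.807). HSF2, a paralogue that can form mixed trimers with HSF1, had 50.8, 53.9 and 53.8 CPM in siSOWAHA, against 43.7, 47.0 and 45.6 CPM in siNC. All siSOWAHA libraries were above all siNC libraries, and HSF2 was higher by 16.2% (log2 fold change 0.22, SE 0.05, adjusted p = 0.00731).

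Both cytosolic HSP90 genes and 5 of the 9 co-chaperones among the members (55.6%) were higher in siSOWAHA. So were 4 of 22 genes (18.2%) on a further list of co-chaperones, most of them of HSP90. The share was 9.12% of all genes and 22.9% of genes averaging at least 100 CPM. HSP90AA1 (HSP90α; Entrez gene 3320, chr14:102080742-102139749, minus strand), the stress-inducible form, had 2515, 2717 and 2682 CPM in siSOWAHA, against 2350.4, 2211 and 2280.1 CPM in siNC. HSP90AB1 (HSP90β; Entrez gene 3326, chr6:44246194-44253883, plus strand), the constitutive form, had 3172, 3279 and 3167 CPM in siSOWAHA, against 2972, 2894 and 2871 CPM in siNC. For both genes the lowest siSOWAHA library was above the highest siNC library. HSP90AA1 was higher by 15.7% (log2 fold change 0.21, SE 0.0293, adjusted p = 0.000144) and HSP90AB1 by 10.1% (log2 fold change 0.14, SE 0.0221, adjusted p = 0.000456). Both promoters hold a heat shock element of 3 units. TRAP1, the HSP90 of the mitochondrial matrix, was not called (log2 fold change 0.029, SE 0.0309, adjusted p = 0.615).

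The largest increase in the set was in FKBP4 (FKBP52, Entrez gene 2288, chr12:2794970-2805423, plus strand), an immunophilin that binds HSP90 in steroid receptor complexes. It had 364, 369 and 357 CPM in siSOWAHA, against 274, 271 and 276 CPM in siNC, with a gap between the groups wider than the spread within either. FKBP4 was higher by 32.7% (log2 fold change 0.41, SE 0.0285, adjusted p = 1.59e-07). AHSA1 (Entrez gene 10598, chr14:77457867-77469472, plus strand), which stimulates the ATPase of HSP90, had 208, 226 and 215 CPM in siSOWAHA, against 165, 168 and 169 CPM in siNC. The groups did not overlap, and AHSA1 was higher by 29.6% (log2 fold change 0.37, SE 0.0365, adjusted p = 4.69e-06). The p23 gene PTGES3 (Entrez gene 10728, chr12:56663349-56689575, minus strand), whose product stabilises the closed, ATP-bound form of HSP90 and slows its ATPase, went the other way. It had 580.0, 612 and 600.5 CPM in siSOWAHA, against 672, 673 and 667 CPM in siNC, again with no overlap, and was lower (log2 fold change -0.17, SE 0.0267, adjusted p = 0.000479).

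CHORDC1 (morgana), an HSP90-binding co-chaperone whose promoter holds the longest element, had 205, 219 and 213 CPM in siSOWAHA, against 182, 184 and 183 CPM in siNC. The groups did not overlap, and it was higher by 15.9% (log2 fold change 0.21, SE 0.0341, adjusted p = 0.000486). STIP1 (HOP), the adaptor that joins HSP70 to HSP90, had 680.0, 723 and 693 CPM in siSOWAHA, against 646, 659 and 641 CPM in siNC. The groups did not overlap, by a narrower margin than for CHORDC1 (log2 fold change 0.11, SE 0.0279, adjusted p = 0.0153). That call did not hold without siSOWAHA replicate 2 (adjusted p = 0.0583), siNC replicate 1 (0.0669) or siNC replicate 3 (0.0716), and adjusted p ran from 0.00109 to 0.0716 over all alternatives. ST13 (HIP), which steadies the ADP-bound form of HSP70, had 507, 528 and 507 CPM in siSOWAHA, against 463, 439 and 429.5 CPM in siNC. It was higher without overlap (log2 fold change 0.21, SE 0.0318, adjusted p = 0.000283), and 22 pseudogenes in RefSeq carry its symbol, so that reads may be shared with them. CDC37, which brings kinases to HSP90, FKBP5, an immunophilin induced by glucocorticoids, and STUB1 (CHIP), a ubiquitin ligase for chaperone clients, were not called, with log2 fold changes of 0.055, 0.074 and 0.12 (adjusted p = 0.328, 0.207 and 0.0921). JMJD8 on the opposite strand overlaps STUB1 and holds 117% as many counts. Counting HSP90AA1 and HSP90AB1 with the 9 co-chaperones, 7 of 11 were higher (63.6%) and 1 was lower (9.09%). These shares were 9.12% and 7.77% of all genes, and 22.9% and 13.0% of genes averaging at least 100 CPM.

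**Figure D2:**
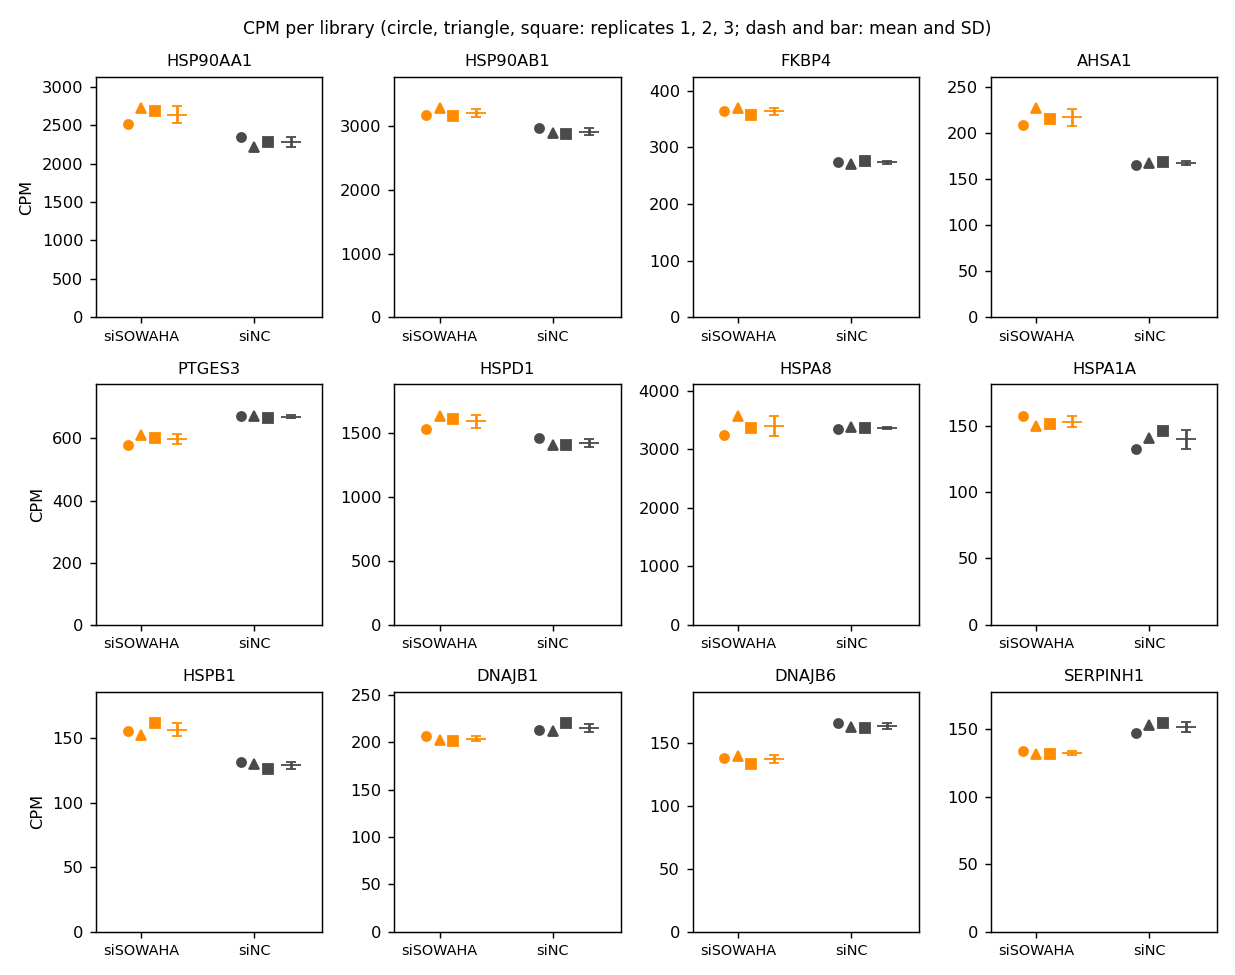
CPM in each library (y axis, from 0) of 12 chaperone genes, with siSOWAHA at the left and siNC at the right of each panel, replicates 1 to 3 as circle, triangle and square, and the mean with its SD beside them. FKBP4, at 357 to 369 CPM in siSOWAHA and 271 to 276 CPM in siNC, is well apart, while HSPA8 overlaps and PTGES3, DNAJB6 and SERPINH1 are lower in siSOWAHA.

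In the HSP70 and HSP110 families 5 of 10 tested genes were higher (50.0%) and none was lower. Higher calls made up 9.12% of all genes and 22.9% of genes averaging at least 100 CPM. The family gene with the highest level per length was not called. HSPA8 (HSC70; Entrez gene 3312, chr11:123057489-123062136, minus strand), the constitutive cytosolic HSP70, had 3245, 3569.8 and 3366 CPM in siSOWAHA, against 3343, 3383 and 3355 CPM in siNC. The siSOWAHA libraries lay on both sides of the siNC libraries, and the log2 fold change of 0.014 (SE 0.0279, adjusted p = 0.806) turned to -0.0013 with upper-quartile factors and -0.0028 with library totals alone. RefSeq holds 20 pseudogenes named after it. HSPA9 (mortalin), the HSP70 of the mitochondrial matrix, had 776, 835 and 805 CPM in siSOWAHA, against 793, 761 and 759.5 CPM in siNC, overlapping, and was not called (log2 fold change 0.062, SE 0.0297, adjusted p = 0.181).

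HSPA1A and HSPA1B are the stress-inducible HSP70 pair. HSPA1A had 158, 149.8 and 152 CPM in siSOWAHA, against 132, 141 and 146 CPM in siNC, which did not overlap, and was called at the edge of the threshold (log2 fold change 0.13, SE 0.0416, adjusted p = 0.0437). HSPA1B had 170.4, 162 and 173 CPM in siSOWAHA, against 155, 157 and 169.9 CPM in siNC, which overlapped, and was not called (log2 fold change 0.069, SE 0.042, adjusted p = 0.313). The coding sequences of the pair, 1926 bases each, differ at 4 bases (99.79% identity) and encode the same 641 residues, so reads of one can be counted for the other. Summed, the pair had 328, 312 and 325 CPM in siSOWAHA, against 287, 298 and 316 CPM in siNC, and was not called (log2 fold change 0.098, SE 0.0365, adjusted p = 0.0832). The HSPA1A call was lost in 5 of the 6 fits that left out a library: siSOWAHA replicate 1 (adjusted p = 0.136), 2 (0.0613) or 3 (0.103), or siNC replicate 1 (0.205) or 2 (0.0930). With all 6 libraries it was also lost with upper-quartile factors (0.0711), library totals alone (0.0878), limma-voom (0.0598) and the replicate block (0.0744). Over all alternatives its adjusted p ran from 0.0156 to 0.205. Their promoters are shown to give the pair's likeness outside the coding sequence; the windows differ at 1 base, and each holds 1 pair of units, in capitals, at -106 to -99 in HSPA1A and -105 to -98 in HSPA1B.
HSPA1A (chr6:31815426-31815455, plus strand): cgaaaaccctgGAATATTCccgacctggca
HSPA1B (chr6:31827622-31827651, plus strand): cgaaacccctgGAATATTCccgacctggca

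HSPA6, an HSP70 gene of primates that is silent without stress, had 4, 22 and 3 counts in siSOWAHA, against 0, 4 and 8 counts in siNC. The highest of these is 0.405 CPM, and no test was made.

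The HSP110 proteins HSPA4, HSPA4L and HSPH1 exchange the nucleotide of HSP70. HSPA4 had 372, 388 and 372 CPM in siSOWAHA, against 349.7, 352 and 347 CPM in siNC, without overlap, and was called (log2 fold change 0.11, SE 0.0286, adjusted p = 0.0151). The call did not hold without siSOWAHA replicate 2 (adjusted p = 0.0562), siNC replicate 1 (0.0572) or siNC replicate 3 (0.0640), in a range of 0.000937 to 0.064 over all alternatives. HSPA4L had 51.3, 55.2 and 55.0 CPM in siSOWAHA, against 45.1, 43.0 and 43.8 CPM in siNC, without overlap, and showed the largest increase of the family at 22.5% (log2 fold change 0.29, SE 0.0499, adjusted p = 0.000797). HSPH1 (HSP105) had 369, 367 and 370.4 CPM in siSOWAHA, against 353, 343 and 350.3 CPM in siNC. The groups did not overlap, but the small difference missed the threshold (log2 fold change 0.081, SE 0.0274, adjusted p = 0.0565), and it passed in DESeq2 (adjusted p = 0.0140) and with a filter of at least 1 CPM in 3 libraries (0.0498), in a range of 0.014 to 0.196.

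HSPA14, which works on nascent chains at the ribosome, had 67.9, 72.0 and 67.7 CPM in siSOWAHA, against 61.2, 60.5 and 59.6 CPM in siNC. The groups did not overlap (log2 fold change 0.20, SE 0.0435, adjusted p = 0.0057), but a RefSeq locus on the same strand overlaps it and holds 72.6% as many counts, so the split of reads between them is uncertain. HSPA13 had 45.3, 54.5 and 50.6 CPM in siSOWAHA, against 41.1, 41.0 and 46.5 CPM in siNC. It is the only called member whose groups overlapped (log2 fold change 0.23, SE 0.0688, adjusted p = 0.034). Its call did not hold without siSOWAHA replicate 2 (adjusted p = 0.176) or 3 (0.109), or siNC replicate 1 (0.144) or 2 (0.140), nor in limma-voom (0.0632), in a range of 0.00865 to 0.176. HSPA2, an HSP70 gene best known from the testis, was not called (log2 fold change 0.084, SE 0.0788, adjusted p = 0.553).

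HSPD1 (HSP60; Entrez gene 3329, chr2:197486584-197500274, minus strand) and HSPE1 (HSP10; Entrez gene 3336, chr2:197500379-197503449, plus strand) form the chaperonin of the mitochondrial matrix and lie head to head. HSPD1 had 1533, 1634 and 1604 CPM in siSOWAHA, against 1458, 1401 and 1401 CPM in siNC, without overlap, and was higher by 12% (log2 fold change 0.16, SE 0.0269, adjusted p = 0.000589). HSPE1, its lid, had 118, 116 and 117 CPM in siSOWAHA, against 113, 109 and 113 CPM in siNC. The HSPE1 groups did not overlap either, and the difference of 4.64% was not called (log2 fold change 0.065, SE 0.0368, adjusted p = 0.269). RefSeq holds 22 pseudogenes named after HSPD1 and 28 named after HSPE1. Of the 5 mitochondrial members (HSPA9, TRAP1, HSPD1, HSPE1 and DNAJA3), HSPD1 was the one called (20.0%, against 16.9% of all genes). Among genes averaging at least 100 CPM, as all 5 of these did, 35.9% were called. The median log2 fold change of the 5 members was 0.062.

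HSPB1 (HSP27; Entrez gene 3315, chr7:76302673-76304292, plus strand), a small heat shock protein that holds unfolded chains without ATP and protects actin filaments, had 155, 152 and 162 CPM in siSOWAHA, against 131, 129.6 and 126 CPM in siNC. The groups were well apart, and HSPB1 was higher by 21.3% (log2 fold change 0.28, SE 0.0376, adjusted p = 0.000105). HSPB11, the intraflagellar transport gene, had 13.9, 16.1 and 15.6 CPM in siSOWAHA, against 19.4, 18.7 and 17.8 CPM in siNC. It was lower without overlap (log2 fold change -0.29, SE 0.0853, adjusted p = 0.0288). Its call did not hold without siSOWAHA replicate 1 (adjusted p = 0.0984) or 3 (0.0560), or siNC replicate 1 (0.105) or 2 (0.0767), nor with the replicate block (0.0542), in a range of 0.0161 to 0.105.

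The DNAJ genes, which deliver clients to HSP70 and start its ATPase, showed 1 higher and 1 lower of 9 (11.1% each). These shares were 9.12% and 7.77% of all genes, and 22.9% and 13.0% of genes averaging at least 100 CPM. DNAJA1 had 425, 461 and 440.0 CPM in siSOWAHA, against 399, 416 and 398 CPM in siNC, without overlap, and was called (log2 fold change 0.13, SE 0.0329, adjusted p = 0.0129). The call did not hold without siSOWAHA replicate 2 (adjusted p = 0.0594), siNC replicate 1 (0.0704) or siNC replicate 3 (0.0690), in a range of 0.000886 to 0.0704. DNAJB1 (HSP40), a strongly heat-inducible member, had 206, 203 and 202 CPM in siSOWAHA, against 213, 212 and 220.3 CPM in siNC. All siSOWAHA libraries were below all siNC libraries, by a margin too small to be called (log2 fold change -0.079, SE 0.0324, adjusted p = 0.117); the gene TECR on the opposite strand overlaps it and holds 53.5% as many counts. DNAJB6 (Entrez gene 10049, chr7:157337004-157417439, plus strand), which keeps polyglutamine proteins from aggregating, had 138, 140.3 and 134 CPM in siSOWAHA, against 166, 163 and 163 CPM in siNC. The groups were far apart, and DNAJB6 was lower (log2 fold change -0.25, SE 0.0353, adjusted p = 0.000146). Its promoter holds an element of 3 units, as those of HSP90AA1 and HSP90AB1 do. The other DNAJ members, DNAJA2, DNAJA3, DNAJA4, DNAJB2, DNAJB4 and DNAJC7, were not called, with log2 fold changes of -0.15 (DNAJB2) to 0.18 (DNAJB4). DNAJB4 and DNAJC7 overlap genes on the other strand. FUBP1 holds 2190% as many counts as DNAJB4, and CNP and NKIRAS2 hold 67.8% and 24.3% as many as DNAJC7. Whether the counting used the strand is not given in the sources used here.

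All 8 subunits of the CCT ring had log2 fold changes above 0, from 0.008 (TCP1) to 0.15 (CCT5), although TCP1 was below 0 with upper-quartile factors (-0.0075) and with library totals alone (-0.0088). CCT subunits assemble in equal numbers, and 5 of 8 were called, all higher (62.5%). Higher calls made up 9.12% of all genes and 22.9% of genes averaging at least 100 CPM. CCT5 had 1008, 1071 and 1034 CPM in siSOWAHA, against 941, 948 and 908 CPM in siNC (log2 fold change 0.15, SE 0.0275, adjusted p = 0.00113). CCT6A had 1195, 1273 and 1232 CPM in siSOWAHA, against 1129.6, 1129 and 1108 CPM in siNC (log2 fold change 0.14, SE 0.0259, adjusted p = 0.00189). CCT3 had 833, 862 and 855 CPM in siSOWAHA, against 783, 793 and 762 CPM in siNC (log2 fold change 0.13, SE 0.0258, adjusted p = 0.00332). In these 3 genes the groups did not overlap and the call held in every fit that left out a library.

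CCT8 had 511, 532 and 512 CPM in siSOWAHA, against 475, 491 and 469 CPM in siNC (log2 fold change 0.12, SE 0.0287, adjusted p = 0.0107), without overlap. Its call did not hold without siNC replicate 1 (adjusted p = 0.0560) or 3 (0.0626), in a range of 0.000443 to 0.0626. CCT7 had 661, 702 and 676 CPM in siSOWAHA, against 635, 654 and 618 CPM in siNC (log2 fold change 0.097, SE 0.0297, adjusted p = 0.0358), with siSOWAHA replicate 1 just above siNC replicate 2. The CCT7 call did not hold without siSOWAHA replicate 2 (adjusted p = 0.132) or 3 (0.0987), or siNC replicate 1 (0.114) or 3 (0.166), nor with upper-quartile factors (0.0699) or library totals alone (0.0510), in a range of 0.0075 to 0.166. TCP1, CCT2 and CCT4 were not called. TCP1 (CCT1) had 763, 764 and 769.9 CPM in siSOWAHA, against 764, 749.8 and 770.2 CPM in siNC, overlapping (log2 fold change 0.008, SE 0.024, adjusted p = 0.885), and shares its locus with ACAT2 on the opposite strand, which holds 11.8% as many counts. CCT2 (log2 fold change 0.062, SE 0.0305, adjusted p = 0.199) and CCT4 (log2 fold change 0.076, SE 0.0283, adjusted p = 0.0808) missed the threshold, and CCT4 passed in DESeq2 (adjusted p = 0.0299) and without siSOWAHA replicate 1 (0.0387), in a range of 0.0299 to 0.217. Whether the subunits differed from each other was not tested.

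BAG proteins release clients from HSP70. BAG3, which hands clients of HSP70 and small heat shock proteins to autophagy, had 56.4, 60.4 and 52.7 CPM in siSOWAHA, against 50.2, 48.1 and 48.4 CPM in siNC, without overlap (log2 fold change 0.21, SE 0.0533, adjusted p = 0.0135). Its call did not hold without siSOWAHA replicate 2 (adjusted p = 0.0789), siNC replicate 2 (0.0606) or siNC replicate 3 (0.0537), in a range of 0.00506 to 0.0789. BAG2, an inhibitor of the ubiquitin ligase STUB1, had 90.8, 99.1 and 92.9 CPM in siSOWAHA, against 74.9, 85.9 and 84.2 CPM in siNC, without overlap (log2 fold change 0.21, SE 0.0541, adjusted p = 0.0155). The BAG2 call did not hold without siSOWAHA replicate 2 (adjusted p = 0.0777) or siNC replicate 1 (0.0759), in a range of 0.00232 to 0.0777, and RAB23 on the opposite strand overlaps it with 18.7% as many counts. BAG1, which links HSP70 to the proteasome, averaged 69.7 ± 0.914 CPM in siSOWAHA and 75.9 ± 1.89 CPM in siNC (SD, n = 3 each), all siSOWAHA libraries below all siNC libraries. It missed the threshold (log2 fold change -0.12, SE 0.0422, adjusted p = 0.0577) and passed in DESeq2 (0.0423), with upper-quartile factors (0.0371), with library totals alone (0.0321) and with the 1 CPM filter (0.0437), in a range of 0.0321 to 0.179. BAG5 was not called (log2 fold change 0.0025, adjusted p = 0.983).

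SERPINH1 (Entrez gene 871, chr11:75562253-75572783, plus strand), which folds procollagen in the ER, had 134, 132 and 132 CPM in siSOWAHA, against 147, 153 and 154 CPM in siNC. The siSOWAHA values were within a narrow band below all siNC values, and SERPINH1 was lower (log2 fold change -0.20, SE 0.0358, adjusted p = 0.00139). Its promoter, like that of DNAJB6, holds a heat shock element of 3 units. COL1A1, a collagen gene from the fibroblast marker list, averaged 6.96 ± 1.17 CPM in siSOWAHA and 9.18 ± 0.703 CPM in siNC (SD, n = 3 each) and was not called (log2 fold change -0.40, SE 0.136, adjusted p = 0.0594).

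Read by library rather than by gene, the median of the members lay above the siNC mean in all 3 siSOWAHA libraries. The median over the 50 members of the difference from the siNC mean (log2 CPM) was 0.082, 0.11 and 0.098 in siSOWAHA replicates 1, 2 and 3, against 0.0033, 0.0029 and -0.0090 in siNC replicates 1, 2 and 3. The same median over all genes tested was at most 0.0020 in every library. Scaling holds that all-gene median near 0, and the baseline holds the siNC medians near 0, so neither is a test of the members. No such median was taken over genes averaging at least 100 CPM. One library stood out within its group: siSOWAHA replicate 2 was the highest of the 3 for 33 of the 50 members (66.0%), against 33.9% of all genes tested and 43.9% of genes that averaged at least 100 CPM. No such share was taken over all genes called higher, so the next count has no matching background. This library was the highest for 21 of the 23 members called higher. Without it 15 members were called higher and 4 lower, against 1154 higher and 1005 lower of all genes, and without siNC replicate 1 there were 15 higher and 3 lower; the other fits that left out a library called 17 to 23 members higher. In all, 17 of the 27 called members were called in each of the 6 fits that left out a library: HSF2, HSPA4L, HSPA14, HSP90AA1, HSP90AB1, HSPD1, HSPB1, DNAJB6, CCT3, CCT5, CCT6A, AHSA1, PTGES3, FKBP4, CHORDC1, ST13 and SERPINH1.

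**Figure D3:**
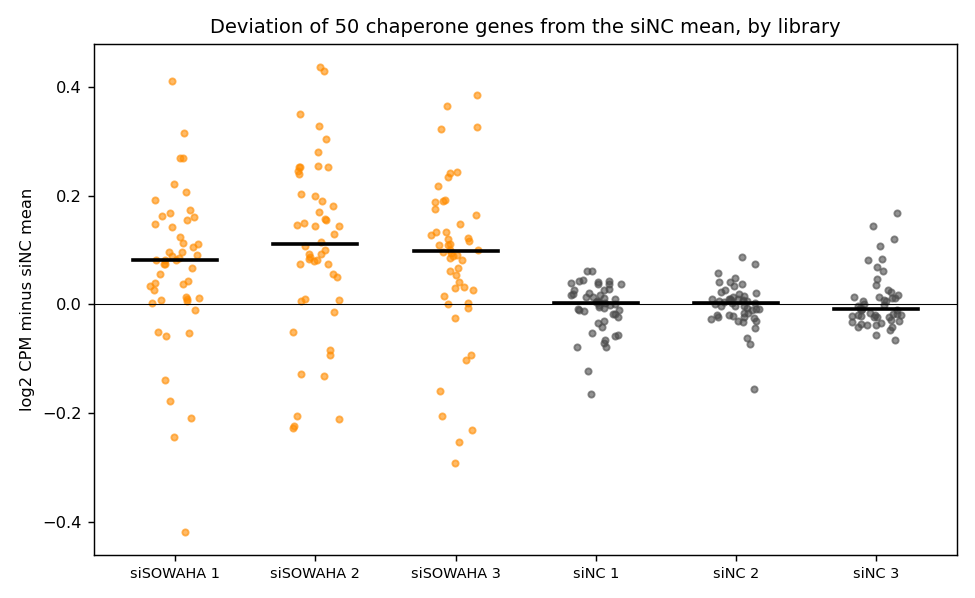
Difference of each library from the siNC mean (y axis, log2 CPM) for the 50 chaperone genes tested, 1 point a gene, with the median as a bar; the 3 siSOWAHA libraries are at the left and the 3 siNC libraries at the right. The siSOWAHA medians stand at 0.082, 0.11 and 0.098, and the siNC medians are near 0 by the choice of baseline.

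Levels were compared between genes on the per-length scale of the authors' deposited FPKM values (fragments scaled to gene length and library size). HSPA8 was the highest member, at 1367 ± 57.8 FPKM in siSOWAHA and 1369 ± 9.48 FPKM in siNC (SD, n = 3 each). HSP90AB1 followed at 1033 ± 15.4 FPKM in siSOWAHA and 949 ± 14.5 FPKM in siNC, then HSPD1 at 620.0 ± 16.5 FPKM in siSOWAHA and 559.9 ± 11.7 FPKM in siNC and HSP90AA1 at 616 ± 21.7 FPKM in siSOWAHA and 539 ± 16.2 FPKM in siNC. In siSOWAHA the HSPD1 and HSP90AA1 levels lie within 1 SD of each other. HSPB1 stood at 185 ± 6.19 FPKM in siSOWAHA and 154 ± 2.95 FPKM in siNC. FKBP4 stood at 66.7 ± 0.952 FPKM in siSOWAHA and 50.8 ± 0.621 FPKM in siNC. The level of HSF1 was below these, at 13.8 ± 0.465 FPKM in siSOWAHA and 13.7 ± 0.964 FPKM in siNC. That of HSF2 was 16.8 ± 0.463 FPKM in siSOWAHA and 14.7 ± 0.553 FPKM in siNC. DNAJB4 was the lowest tested member (3.66 ± 0.26 FPKM in siSOWAHA and 3.26 ± 0.0581 FPKM in siNC), and HSPA6 averaged 0.0681 ± 0.0767 FPKM in siSOWAHA and 0.0266 ± 0.0267 FPKM in siNC.

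In the FPKM table, tested with limma on log2(FPKM + 1), 24 of 50 members were called, against 20.0% of the 12027 genes tested there. They were 19 higher, against 9.2% of all genes there, and 5 lower, against 10.8%, and 23 members were called the same way in both tables. HSPA1A (adjusted p = 0.163), HSPA13 (0.0965), CCT7 (0.0867) and BAG2 (0.0669) were called by counts only, and BAG1 was called, lower, by FPKM only (adjusted p = 0.0291). The FPKM of HSPA1A and HSPA1B is understated. Their counts and FPKM imply lengths of 12975 and 13609 bases, which are 5.23 and 5.40 times the exon length in GENCODE 29, against 0.26 to 1.5 times for the 46 members listed on primary chromosomes. Rescaled to the GENCODE length, HSPA1A would stand at 63.6, 59.5 and 60.7 FPKM in siSOWAHA, against 53.6, 56.7 and 59.6 FPKM in siNC.

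**Figure D4:**
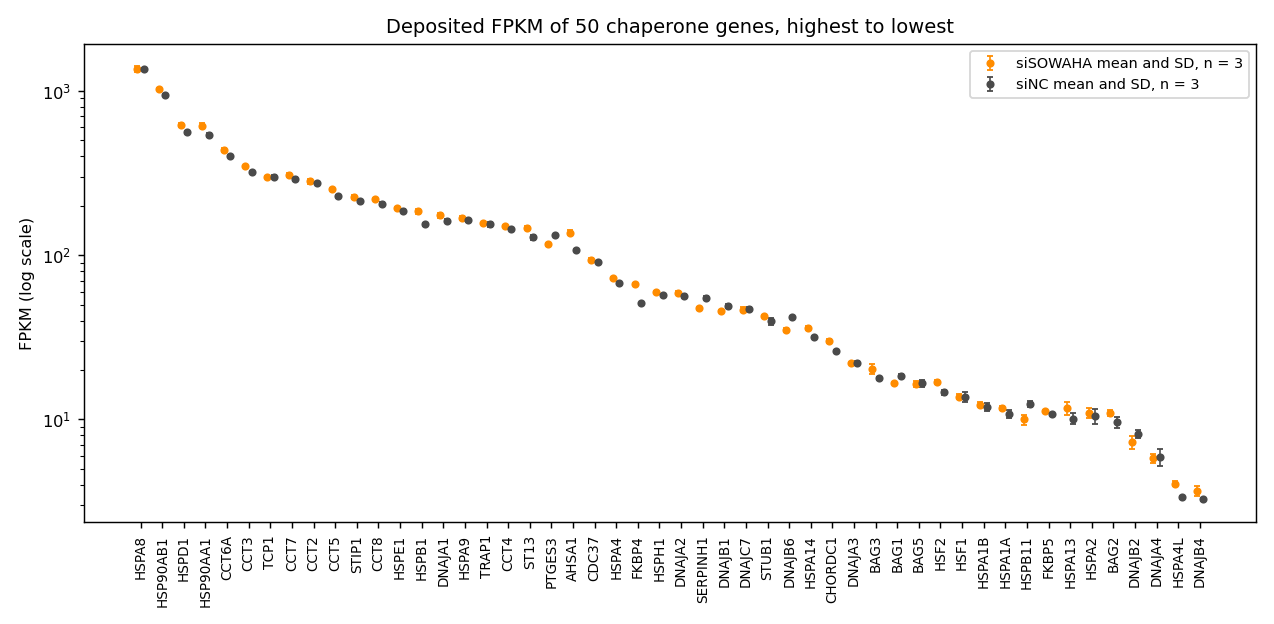
Mean deposited FPKM with its SD (y axis, log scale, n = 3 a group) of the 50 chaperone genes tested, ordered from the highest to the lowest, with siSOWAHA in orange and siNC in grey. Levels run from HSPA8 at about 1367 FPKM in siSOWAHA to DNAJB4 at 3.66 FPKM in siSOWAHA; HSPA1A and HSPA1B are drawn as deposited.

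Genes that work beside the members were counted from lists drawn up for this comparison. Over all genes tested, 9.12% were higher and 7.77% lower. Of 22 further co-chaperones tested, 4 were higher and 1 was lower, with a median log2 fold change of 0.092. Most of the 22 are HSP90 co-chaperones, but HSPBP1, BAG4 and BAG6 are partners of HSP70, and PDCL3 and TXNDC9 of CCT. None of those HSP70 and CCT partners was called. The higher ones were NUDCD3 (log2 fold change 0.45, adjusted p = 3.42e-06), NUDC (0.33, adjusted p = 7.5e-06), the cyclophilin PPID (0.25, adjusted p = 0.000644) and SUGT1 (0.19, adjusted p = 0.00796). The lower one was AARSD1 (-0.36, adjusted p = 0.0372), named after its value was seen. Of 28 further DNAJ genes tested, 3 were higher and 2 were lower. DNAJC6 (auxilin), which uncoats clathrin vesicles with HSPA8, averaged 57.5 ± 1.49 CPM in siSOWAHA and 45.4 ± 1.26 CPM in siNC (SD, n = 3 each; log2 fold change 0.34, SE 0.047, adjusted p = 0.00014). DNAJC12 (0.35) and DNAJC14 (0.20) were higher too, and GAK, a kinase with a J domain, was lower (-0.11). Prefoldin passes actin and tubulin chains to CCT. A list of prefoldin and prefoldin-like genes showed 1 higher (PFDN6, 0.22) and 1 lower (PDRG1, -0.16) of 9. PDRG1, URI1 and UXT are the prefoldin-like genes. Of 15 mitochondrial import and protease genes, 3 were higher and none was lower; they were LONP1 (0.20), the matrix protease, GRPEL2 (0.21), an exchange factor of HSPA9, and HTRA2 (0.21). Of 14 further HSP genes listed, 5 had no counts in any library and 6 were tested. HSPA12A (-0.28, adjusted p = 0.000123) and HSBP1 (-0.16, adjusted p = 0.0113), a binding partner of HSF1, were lower (33.3%). None of the 6 was higher, and 0 of them had a log2 fold change above 0 (median -0.36). Among the 6, HSPB6 and HSFX1 were rare, averaging 0.158 and 0.167 CPM in siSOWAHA.

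Of 10 further genes named as HSF1 targets that were tested, 2 were higher and 2 were lower (20.0% each). Over all genes the shares were 9.12% and 7.77%. SLC5A3, a myo-inositol transporter, averaged 325 ± 5.01 CPM in siSOWAHA and 240.1 ± 2.59 CPM in siNC (SD, n = 3 each; log2 fold change 0.44, SE 0.0294, adjusted p = 1.09e-07). CACYBP averaged 197 ± 1.33 CPM in siSOWAHA and 174 ± 0.967 CPM in siNC (log2 fold change 0.18, SE 0.0319, adjusted p = 0.000978). IER5, a cofactor of HSF1, averaged 40.8 ± 3.25 CPM in siSOWAHA and 50.5 ± 1.73 CPM in siNC and was lower (log2 fold change -0.31, SE 0.0602, adjusted p = 0.00224), and ZFAND2A (AIRAP) averaged 12.2 ± 1.33 CPM in siSOWAHA and 15.2 ± 1.10 CPM in siNC and was lower too (log2 fold change -0.32, SE 0.101, adjusted p = 0.0398).

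Chaperones of the ER lumen, which answer to the unfolded protein response, were higher more widely. Of these 18 genes, 13 were called higher (72.2%, against 9.12% of all genes) and none lower. Their median log2 fold change was 0.22, against 0.090 for the 50 members. CANX (0.25) and PDIA3 (0.24) were among the 4 with the smallest adjusted p. Whether the ER list and the members differed was not tested.

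**Figure D5:**
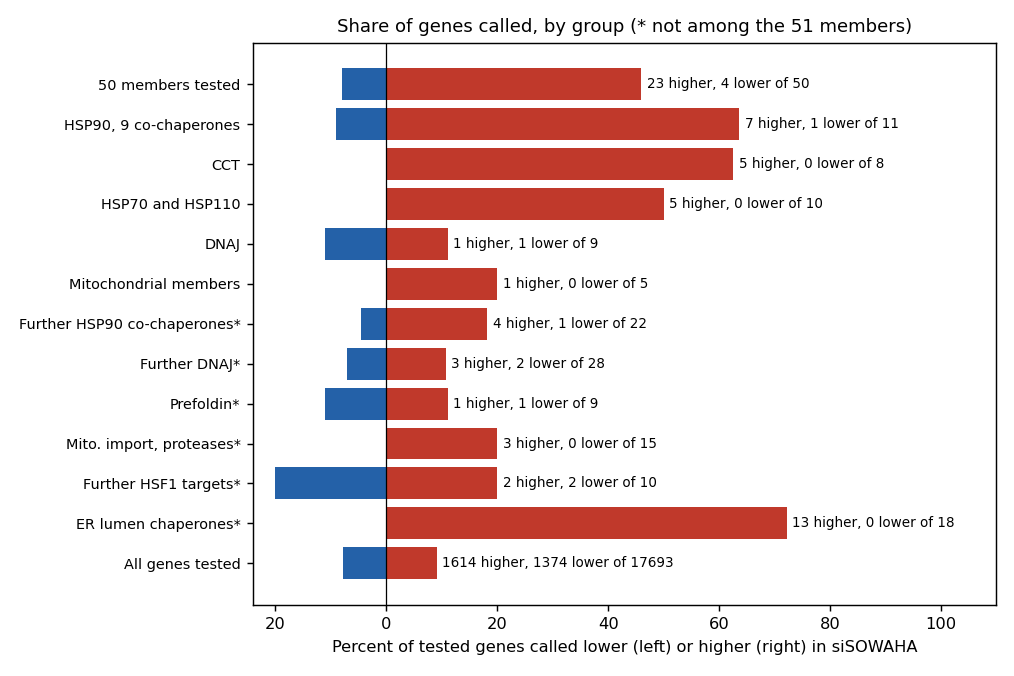
Percent of tested genes called higher (right of 0) and lower (left of 0) in siSOWAHA against siNC. Rows are chaperone groups, related gene lists marked with an asterisk, and all genes tested. The list of further HSP genes, with 0 higher and 2 lower of 6 tested, is not drawn. The list labelled further HSP90 co-chaperones also holds partners of HSP70 and CCT, and that labelled prefoldin also holds prefoldin-like genes. The ER lumen list reaches 72.2% higher, the cytosolic HSP90 genes with the 9 co-chaperones among the members 63.6%, CCT 62.5% and the 50 members 46.0%. The DNAJ members reach 11.1% and all genes 9.12%. Among genes averaging at least 100 CPM, which are not drawn, 22.9% were higher.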

How the data were processed

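Poly(A) RNA of SW620 cells was sequenced as strand-marked (dUTP) paired-end libraries, per the labels' protocols. Sample titles gave the groups and replicate numbers, because the treatment field says knockdown for each of the 6. Per the submitters' processing notes the tools were cutadapt 1.9 and FastQC, with the build GRCh38. No source used here gives the aligner, the counting program with its strand setting, or the annotation. The authors deposited raw counts for 39554 genes, and a table of FPKM values with the same counts for 24901 of them (identical in all 24901). Replicates differed by more than sampling noise (chi-square per degree of freedom 8.09 to 14.8).

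Counts were tested with edgeR 4.0.16 in R 4.3.3 (filterByExpr, TMM factors, robust quasi-likelihood F test, two-sided, Benjamini-Hochberg over 17693 genes, threshold 0.05), with all 6 libraries and no covariate. The SE is the log2 fold change over the square root of F. The deposited FPKM values were tested with limma 3.58.1 (trend) on log2(FPKM + 1), after a filter (FPKM of 1 or more in 3 or more libraries); fold changes on that scale understate low genes. No test was run over the members as a set, and no p was adjusted over them alone. Depth was 49937395 to 59474396 counts per library, and no interval is given for single counts. The steps were tested on simulated data, in which the changed genes had larger fold changes than most of the called members. Recovery of changes as small as most of those reported here was not tested.

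The members, the related lists and the promoter search were chosen with earlier results of these data known. The text gives per-library values for each member called and for a fixed list of main chaperones, the other members by ranges, and up to 4 called genes of each related list, AARSD1 being an exception. Promoter sequences are RefSeq's (GRCh38.p14) and exon lengths GENCODE 29's, read in Python 3.11.15. For 5 members (CHORDC1, DNAJA3, HSF1, HSPA1A and HSPA1B) the deposited annotation lists an alternate or patch scaffold, and no gene span is printed. Alternatives were RLE, upper-quartile or total-count scaling, other filters, DESeq2 1.42.0, limma-voom, a replicate block, each library left out, a threshold of 0.01, HSPA1A and HSPA1B summed and, on the FPKM side, 0.1 as the pseudocount and different filters. The share called among genes averaging at least 100 CPM was added after seeing the data.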

Additional observations from a re-analysis of the deposited data

How the results depend on the processing

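The 27 called members kept their direction under every alternative run. Members called higher and lower numbered 23 and 4 with RLE factors, 21 and 5 with upper-quartile factors, 21 and 5 with library totals alone, 25 and 5 in DESeq2 (where 23.1% of all genes were called), and 21 and 4 in limma-voom. A threshold of 0.01 left 1556 genes, 863 higher and 693 lower, and 17 members, 14 higher, by construction. The median log2 fold change of the members was 0.075 with upper-quartile factors and 0.073 with library totals alone. A change of scaling moves all genes alike. The TMM factors, which library totals alone omits, were 1.00109, 0.986658 and 0.994962 in siSOWAHA replicates 1, 2 and 3. In siNC replicates 1, 2 and 3 they were 1.00503, 1.00143 and 1.01101. With those 2 scalings, in that order, 5 uncalled members fell below 0: HSPA8 (-0.0013 and -0.0028), DNAJA3 (-0.00020 and -0.0017), DNAJC7 (-0.0073 and -0.0086), TCP1 (-0.0075 and -0.0088) and BAG5 (-0.012 and -0.014).

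Leaving out 1 library gave 1978 to 2678 genes called, 1075 to 1453 higher and 871 to 1225 lower, from fewer samples. The lowest counts came without siNC replicate 3 (1978 called, 871 lower) and without siSOWAHA replicate 3 (1075 higher). Members called higher numbered 15 to 23, with 15 without siSOWAHA replicate 2 and 15 without siNC replicate 1. Signs turned in uncalled members: HSF1 ran from -0.010 to 0.082, HSPA8 from -0.023 to 0.045, DNAJA4 from -0.089 to 0.077, DNAJC7 from -0.025 to 0.037, TCP1 from -0.0028 to 0.016 and BAG5 from -0.029 to 0.047. In FPKM, 15 members were called with no filter on low values, against 24, and 15 to 22 with 1 library left out, with 15 without siSOWAHA replicate 3 and 15 without siNC replicate 3; the cause was not tested.

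Deviations of same-numbered libraries correlated at -0.17, 0.0018 and 0.026 (Pearson, across genes). Differently numbered libraries ran from -0.178 (siSOWAHA replicate 3 with siNC replicate 2) to 0.168 (siSOWAHA replicate 3 with siNC replicate 1). No pairing by number was seen, but these values cannot decide whether the samples were paired. With the replicate block, 22 members were called higher and 3 lower, of 2599 genes, and 19 in FPKM; the calls of HSPA1A and HSPB11 were the ones lost by counts. SOWAHA stayed called in all fits. At this depth HSPA6 was too rare to test.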

Other observations

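Heat shock elements of 3 or more units were also counted outside the chaperones. Of the 13234 tested genes with a RefSeq promoter, 10.1% were called higher and 8.08% lower in siSOWAHA. Of these, 65 had such an element, with 8 higher and 4 lower and a median log2 fold change of -0.0071. The 8 members among them comprised 5 higher and 2 lower, with a median of 0.13. The 57 genes that are not members comprised 3 higher (5.26%) and 2 lower (3.51%), with a median of -0.040. Genes with high counts were called more often, and the levels of these 57 genes were not compared with those of the members. Among members, 10 of 21 with at least a pair of units were higher (47.6%), and 9 of 23 without one were higher (39.1%). Only exact units inside the window were searched for, so a member without a match may still have an imperfect or more distant element. All these counts are descriptions with no test.

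The members' counts may be shared with other loci in ways that the deposited tables do not show. RefSeq names 28 pseudogenes after HSPE1, 22 after HSPD1, 22 after ST13 and 20 after HSPA8. Those of HSPE1, HSPD1 and HSPA8 have no row in the count table, and the 1 pseudogene of ST13 that has one held 1122 counts, 0.713% of the counts of ST13.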
